A study of Mus musculus with 8 samples.

Results

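Respiratory complex I is the NADH dehydrogenase of the mitochondrial inner membrane, and most of its nuclear subunits carry gene symbols that start with Nduf. The Nduf genes were taken as the array rows whose only gene symbol in the platform annotation starts with Nduf, with the row of highest mean kept for a gene. This gave 33 genes of 14860 genes with a row of their own, 27 for subunits and 6 for assembly factors named Ndufaf, out of 49 protein-coding Nduf symbols in the RefSeq table. The others were not analysed here, among them Ndufa4 and Ndufa4l2, whose proteins are now placed with complex IV. No Nduf gene had more than 1 row.

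The tissue was gastrocnemius, the large calf muscle, of male C57BL/6 mice aged 12 weeks. Mice in the ursolic acid group ate standard chow with 0.27% ursolic acid, a plant triterpenoid, for 5 weeks, and control mice ate the same chow without it. RNA of 2 mice was pooled for each sample, and each group had 4 samples on 4 arrays, so the p-values below measure the spread between pools. The titles and the treatment field set the groups, but the free-text description names the opposite treatment for 4 samples, namely ursolic acid samples 1 and 3 and control samples 2 and 4.

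In complex I, a peripheral arm oxidises NADH and passes electrons along iron-sulfur clusters to ubiquinone, and a membrane arm uses the energy to pump protons. Core subunits carry the cofactors and the catalysis. Accessory subunits surround them and are needed for assembly and stability. Assembly factors help to build the modules and are absent from the finished enzyme. Skeletal muscle, above all its oxidative fibres, relies on complex I for aerobic ATP production.

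Every value is a log2 expression value from the deposited table, and a difference is the mean of the ursolic acid arrays minus the mean of the control arrays on that scale. Values of different rows depend on their probes, so they were compared within a gene, and across rows served only to sort bright rows from dim ones. Array medians lay between 5.55 and 5.61, and control sample 1 had the lowest mean Spearman correlation with the other arrays, 0.977 against 0.983 to 0.986 for the rest. The 10 measured muscle markers, among them Ckm, Acta1 and Actn3, had means of 10.05 to 12.46 in ursolic acid arrays and 10.03 to 12.50 in control arrays, beside a median of 5.58 over all rows. In bulk RNA such as this, fewer cells of a type and less RNA per cell cannot be told apart.

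Most complex I subunit genes had slightly higher means in muscle of mice fed ursolic acid, none past the test, by amounts near the spread between arrays of a group (median SD 0.072 with ursolic acid and 0.069 in control). Of the 27 subunit genes, 23 had a higher mean with ursolic acid and 4 a lower one, with a median difference of 0.060 and single differences from −0.20 to 0.14. The share of all 16755 rows with a higher mean was 45.5%, with a median difference of −0.011. Among the 1396 rows with a mean of at least 8, 62.4% were higher and the median difference was 0.024, and 25 of the 27 subunit rows lay in that range. The highest subunit difference, in Ndufs4, was 1.10-fold. The count of higher subunits was 25, 21 and 20 after median centring, quantile normalization and cyclic loess. It was 18, with a median difference of 0.030, without ursolic acid sample 3. Grouped by the free-text description it was 14 with a median of 0.0028, and among samples described as treated 13 with a median of −0.0015. Grouping all arrays by the description put 12.5% of all rows at an unadjusted limma p under 0.05, against 7.07% when grouped by title. No row passed an adjusted p of 0.05 in either grouping, and which label is right was not tested.

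No Nduf gene passed correction. By limma with Benjamini-Hochberg adjustment over all rows, 0 of the 33 genes had an adjusted p under 0.05 (0% of all rows did), and their smallest adjusted p was 0.694. At an unadjusted p under 0.05 there were 3 genes, Ndufs4 and Ndufaf4 with higher means and Ndufaf5 with a lower one, where 7.07% of all rows passed. That is 9.09% of the Nduf genes, close to the background. With single arrays left out the count was 0 to 2, where 5.52% to 8.59% of all rows passed. It was 0 without ursolic acid sample 1, 2 or 4 or control sample 2 or 3. The groups did not overlap in 3 of the 33 genes, or 9.09%, namely Ndufs4, Ndufb8 and Ndufaf4, against 4.49% of all rows. Bright rows did so more often than all rows, in 120 of the 1396 with a mean of at least 8. With a mean of at least 10 it was 18 of 198 rows, so the count of Nduf genes was near that of bright rows. With all 4 arrays a group, 25 of the 27 subunit genes had a 95% interval within 0.32 of no difference on the log2 scale, a limit picked after the values were seen. The exceptions were Ndufa7 and Ndufa12. The same held for 4 of the 6 assembly factors and for 11096 of the 16755 rows.

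**Figure D1:**
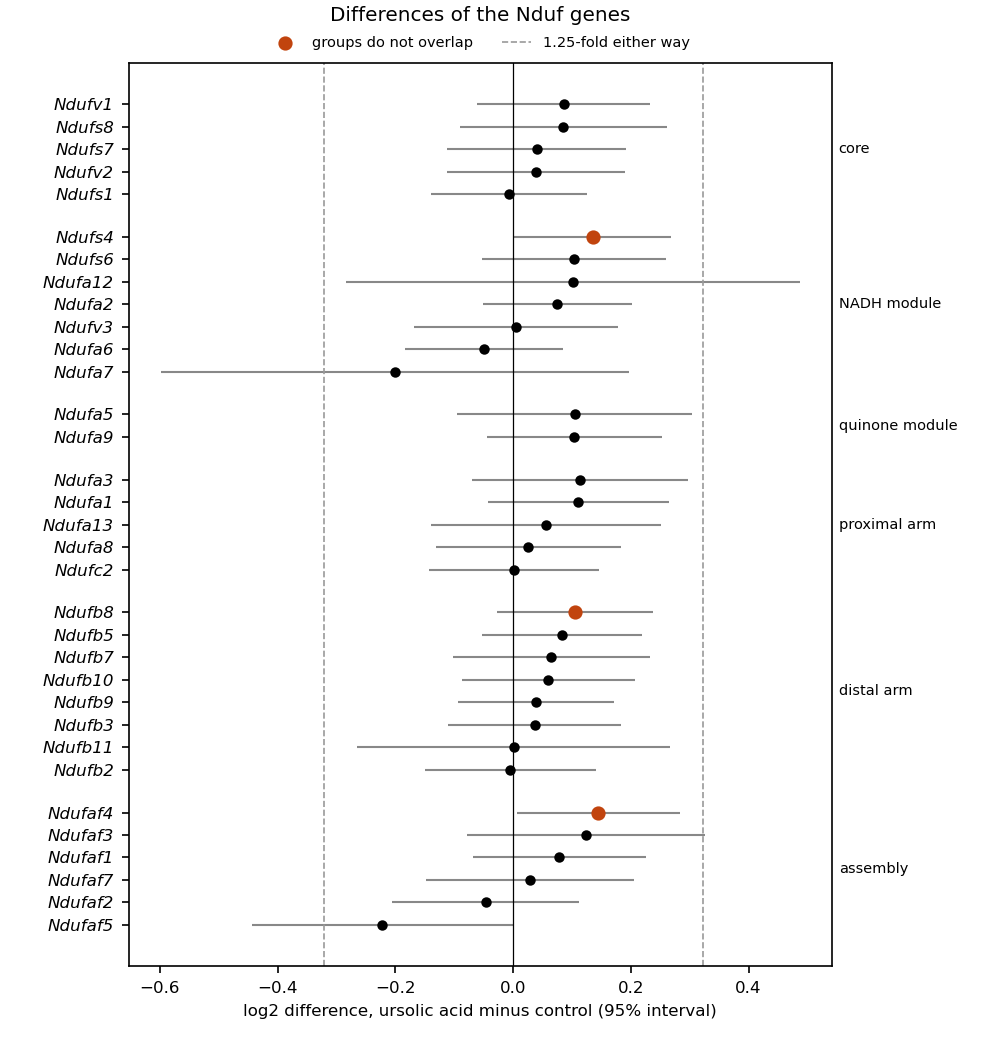
Differences of the 33 Nduf genes by limma, as log2 ursolic acid minus control with 95% intervals, grouped by role; dashed lines mark 0.32 either way and large orange points the genes whose groups do not overlap. Of the subunits, 23 of 27 lie right of 0, and the intervals of Ndufs4, Ndufaf4 and Ndufaf5 alone leave it out.

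Upstream sequences are shown for the 3 genes whose groups did not overlap and for Ndufaf5, the gene with the lowest difference. NRF1, ERR, GABP and YY1 are regulators known to bind promoters of respiratory chain genes. Their letters were searched on both strands in the 250 bases before the start of each gene, from the RefSeq promoter table of build GRCm38.p6, where 30 of the 33 genes were matched. The NRF1 core GCGCATGCG was in 2 of 30 genes, or 6.67%, and in 1.64% of 27025 genes in the table. The ETS core CCGGAAG, which GABP binds, was in 2 of 30, against 7.83% of all genes. The YY1 core AAGATGGC and the ERR half-site TNAAGGTCA were in 0 of 30, against 1.83% and 1.30% of all genes. The NRF1 letters were in Ndufaf4 and Ndufa8 and the ETS letters in Ndufaf1 and Ndufb7. Of the sequences here, Ndufaf4 alone holds a match: letters on both strands overlap from base −113 to −104 before the start and are in capitals. A match is a description of letters, and binding was not measured. Each run reads 5′ to 3′ along the gene and ends at the base before its start.
Ndufs4, chr13:114388095-114388344, minus strand: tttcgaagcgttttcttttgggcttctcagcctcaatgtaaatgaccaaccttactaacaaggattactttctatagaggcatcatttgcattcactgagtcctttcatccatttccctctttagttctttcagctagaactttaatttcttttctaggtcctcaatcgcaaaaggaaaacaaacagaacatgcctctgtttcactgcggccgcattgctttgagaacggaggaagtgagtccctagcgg
Ndufb8, chr19:44555443-44555692, minus strand: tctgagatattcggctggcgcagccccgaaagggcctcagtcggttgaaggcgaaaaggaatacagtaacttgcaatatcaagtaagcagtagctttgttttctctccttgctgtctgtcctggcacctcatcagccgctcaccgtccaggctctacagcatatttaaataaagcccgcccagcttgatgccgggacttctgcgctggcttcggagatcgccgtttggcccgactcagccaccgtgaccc
Ndufaf4, chr4:24897833-24898082, plus strand: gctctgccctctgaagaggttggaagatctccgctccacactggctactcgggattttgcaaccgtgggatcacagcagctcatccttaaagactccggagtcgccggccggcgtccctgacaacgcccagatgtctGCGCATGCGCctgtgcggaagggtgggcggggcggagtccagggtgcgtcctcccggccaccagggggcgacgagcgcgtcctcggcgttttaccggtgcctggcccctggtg
Ndufaf5, chr2:140170396-140170645, plus strand: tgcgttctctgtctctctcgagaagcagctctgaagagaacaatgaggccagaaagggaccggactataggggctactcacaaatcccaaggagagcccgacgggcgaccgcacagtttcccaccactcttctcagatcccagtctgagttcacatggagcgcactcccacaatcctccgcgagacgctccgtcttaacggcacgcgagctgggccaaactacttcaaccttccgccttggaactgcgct

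Of the 7 nuclear core subunit genes 5 were measured, and 0 of the 7 complex I genes encoded in mitochondrial DNA had a row used here. Among the core subunits, 4 of the 5 measured had higher means, by 0.039 to 0.086, and none passed. Ndufv1 binds the flavin that takes electrons from NADH. Its log2 values were 9.81, 9.68, 9.72 and 9.67 in ursolic acid arrays, against 9.74, 9.60, 9.59 and 9.60 in control arrays. Control sample 1 sat above 3 of the ursolic acid arrays, so the groups overlapped, with a difference of 0.086 ± 0.066 (SE; limma adjusted p = 0.851). Ndufs8, an iron-sulfur subunit near the quinone site, had values of 9.41, 9.38, 9.46 and 9.27 in ursolic acid muscle, against 9.42, 9.39, 9.20 and 9.18 in control muscle, a difference of 0.085 ± 0.079. Its control arrays fell into a higher and a lower pair, and all 4 ursolic acid arrays were above the lower pair.

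Ndufs7, which holds the cluster that reduces ubiquinone, had 9.56, 9.61, 9.72 and 9.58 in ursolic acid muscle, against 9.47, 9.66, 9.60 and 9.59 in control muscle. Ndufv2, an iron-sulfur subunit beside Ndufv1, had 10.38, 10.22, 10.33 and 10.22 in ursolic acid muscle, against 10.30, 10.23, 10.16 and 10.30 in control muscle. The groups were interleaved in both genes, with differences of 0.040 ± 0.068 and 0.039 ± 0.067. Ndufs1, the large iron-sulfur subunit of the NADH-oxidising module, had 9.71, 9.65, 9.73 and 9.71 in ursolic acid muscle, against 9.66, 9.73, 9.66 and 9.77 in control muscle. Its difference of −0.0070 had a 95% interval of −0.14 to 0.13, or 0.908 to 1.09 as a ratio, with values of both groups interleaved.

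The accessory subunits of the NADH-oxidising module held both ends of the range. Ndufs4 (NCBI gene 17993, chromosome 13), a late-joining accessory subunit whose human counterpart is mutated in Leigh syndrome, had 10.80, 10.81, 10.85 and 10.88 in ursolic acid muscle, against 10.72, 10.72, 10.62 and 10.74 in control muscle. All 4 ursolic acid arrays were above all 4 control arrays. The means were 10.84 ± 0.04 with ursolic acid and 10.70 ± 0.05 in control (SD, n = 4 each), a difference of 0.14 ± 0.060 (SE), or 1.10-fold with an interval of 1.00 to 1.20, and a limma adjusted p of 0.703. Over 22 alternative settings its difference stayed positive, from 0.040 to 0.17, with adjusted p of 0.186 to 0.996. Some of these settings cannot change a difference of means, among them the replicate block, the row filters and the variance trend. Their unchanged difference says nothing about its stability. Ndufs6, a zinc-binding subunit of the same module, and Ndufa2 had differences of 0.10 ± 0.070 and 0.075 ± 0.057. For Ndufa2, 3 of the 4 ursolic acid arrays were above every control array.

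Ndufa7 had the lowest difference of any subunit, and its size hung on single arrays. Its values were 5.46, 4.69, 5.47 and 5.49 in ursolic acid muscle, against 5.56, 5.18, 5.63 and 5.54 in control muscle, where the second sample of each group was the low one. The difference of −0.20 ± 0.18 became −0.0052 without ursolic acid sample 2, which keeps the low control sample 2. With single arrays left out it ran from −0.30 to −0.0052, negative each time. Ndufa6, which sits with Ndufa7 where the NADH-oxidising and quinone modules meet, had 9.975, 9.995, 9.986 and 9.884 in ursolic acid muscle, against 9.950, 10.043, 9.997 and 10.045 in control muscle, a difference of −0.049 ± 0.060. Ndufv3 had a difference of 0.0051 ± 0.078. Ndufa12 varied most between arrays of the Nduf rows with a mean above 8, at 8.16, 8.27, 7.79 and 8.30 in ursolic acid muscle, against 7.74, 7.84, 8.53 and 8.01 in control muscle. Its difference of 0.10 ± 0.17 ran from 0.0039 to 0.27 when single arrays were left out.

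In the quinone module, Ndufa5 and Ndufa9 each had a difference of 0.10, with standard errors of 0.090 and 0.067. Without ursolic acid sample 3 the differences were 0.034 and 0.070. For Ndufa9, a subunit that binds NADPH, 2 ursolic acid arrays lay above all controls. In the proximal membrane arm, all 5 measured subunits had higher means, by 0.0012 to 0.11. Ndufa3 had 10.57, 10.45, 10.68 and 10.62 in ursolic acid muscle, against 10.63, 10.49, 10.39 and 10.34 in control muscle. Ndufa1, a small X-linked membrane subunit, had 10.80, 10.76, 10.89 and 10.74 in ursolic acid muscle, against 10.62, 10.81, 10.65 and 10.67 in control muscle. In both genes 1 ursolic acid array, sample 3, was above every control array, and the differences were 0.11 ± 0.082 and 0.11 ± 0.069. Ndufa13, Ndufa8 and Ndufc2 had differences of 0.056, 0.026 and 0.0012, and each changed sign when single arrays were left out. Ndufa13 was at −0.015 without ursolic acid sample 1, and Ndufa8 at −0.020 without ursolic acid sample 3. Ndufc2 ran from −0.029 without control sample 1 to 0.033 without control sample 4.

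In the distal membrane arm 7 of 8 measured subunits had higher means. Ndufb8 (NCBI gene 67264, chromosome 19), whose protein is widely blotted as a marker of assembled complex I, had 10.127, 10.065, 10.112 and 10.065 in ursolic acid muscle, against 9.940, 9.994, 9.952 and 10.064 in control muscle. The groups were parted only by the gap between 10.065 in ursolic acid samples 2 and 4 and 10.064 in control sample 4. The difference was 0.10 ± 0.060 (SE; limma adjusted p = 0.786). Ndufb5, Ndufb7, Ndufb10, Ndufb9 and Ndufb3 had differences of 0.083, 0.065, 0.060, 0.039 and 0.036. Ndufb11 and Ndufb2 were at 0.00094 and −0.0045.

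**Figure D2:**
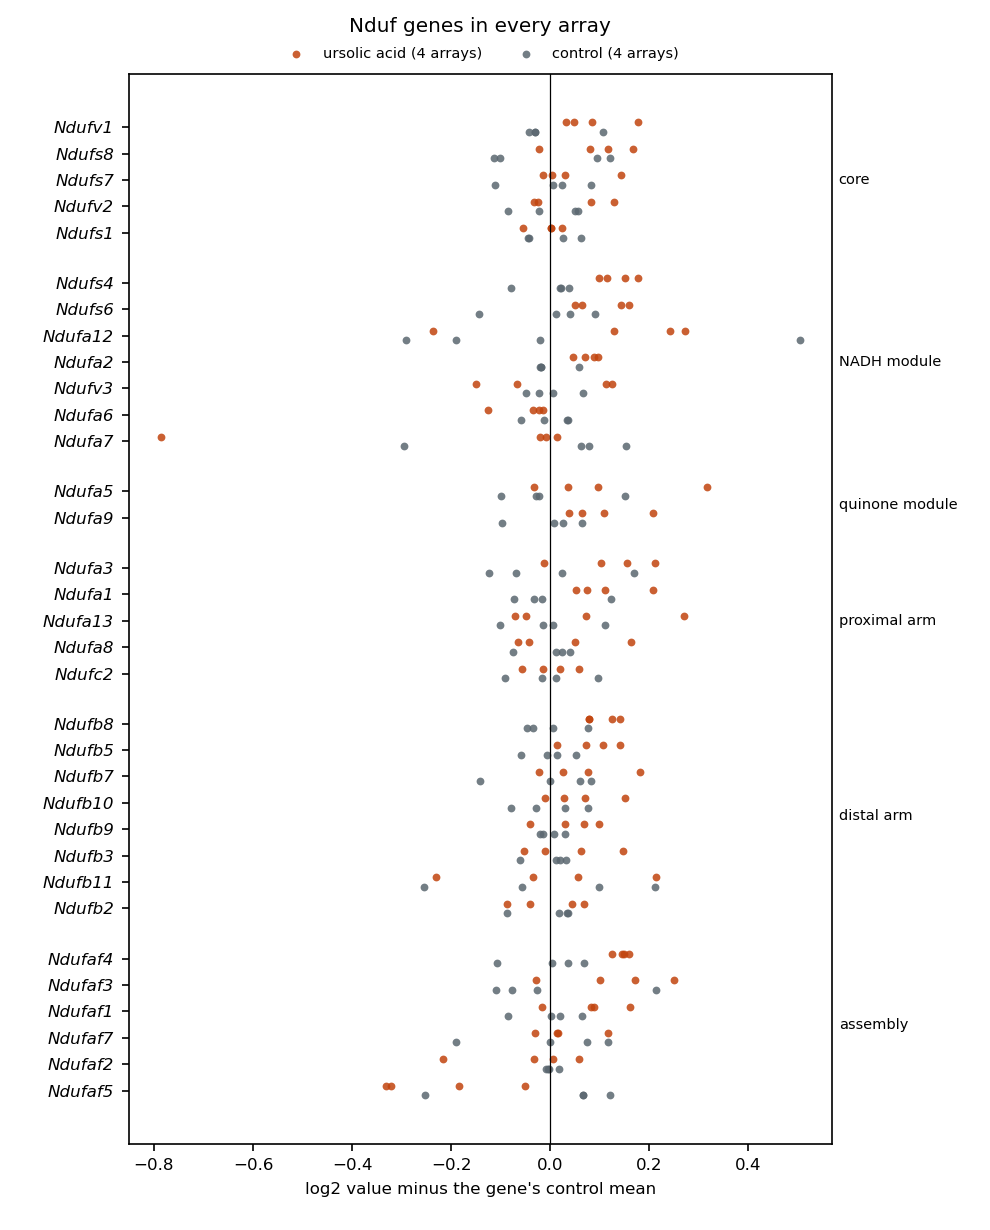
Values of the 33 Nduf genes in every array, each as the log2 value minus that gene's control mean, with the 4 ursolic acid arrays drawn above the 4 control arrays in each row and genes grouped by role. The groups overlap in all rows but Ndufs4, Ndufb8 and Ndufaf4, and the low ursolic acid point of Ndufa7 (4.69) and the high control point of Ndufa12 (8.53) stand far from the rest.

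The Ndufaf assembly factors were mixed in direction. Of the 6 genes, 4 had higher means and 2 lower, with a median difference of 0.054 beside 0.060 for the subunits, and differences from −0.22 to 0.14. Their spread around that median was wider than that of the subunits, with middle values from −0.028 to 0.11, against 0.016 to 0.10 for the subunits (lower to upper quartile). These quartiles rest on 6 genes, whose rows were dimmer, with a median mean level of 8.76 against 10.04 for the subunits. Their median SDs were also larger, 0.096 among ursolic acid arrays and 0.106 among control arrays, against 0.072 and 0.069 for the subunits. The part of level and array spread in the wider range was not tested. The median of the assembly factors was 0.0076 without control sample 1, in which 3 of the 6 had their lowest value of all arrays. For the subunits it was 0.049 without that sample. The subunit shift minus the assembly factor shift, each a median deviation from the gene means within an array, was −0.013, −0.061, 0.013 and 0.078 in ursolic acid samples 1 to 4, against 0.093, −0.014, −0.037 and −0.048 in control samples 1 to 4. Both groups held values on either side of 0 and overlapped, with control sample 1 the highest of all 8.

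Ndufaf4 and Ndufaf3 bind each other and act early, on the module that reduces ubiquinone. Ndufaf4 (NCBI gene 68493, chromosome 4) had 8.95, 8.93, 8.96 and 8.95 in ursolic acid muscle, against 8.70, 8.84, 8.81 and 8.87 in control muscle. The ursolic acid arrays lay close together above every control array. The means were 8.95 ± 0.01 with ursolic acid and 8.81 ± 0.08 in control (SD, n = 4 each), and the difference was 0.14 ± 0.062 (SE), or 1.11-fold, with a limma adjusted p of 0.694. Its partner Ndufaf3 had 7.26, 7.18, 7.11 and 6.98 in ursolic acid muscle, against 7.23, 6.99, 6.90 and 6.94 in control muscle. Here only ursolic acid sample 1 was above all controls, and the difference was 0.12 ± 0.091.

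Ndufaf5 (NCBI gene 69487, chromosome 2), an enzyme that hydroxylates an arginine of Ndufs7, had a lower mean. It had 8.43, 8.58, 8.71 and 8.44 in ursolic acid muscle, against 8.51, 8.83, 8.88 and 8.83 in control muscle. The 4 ursolic acid arrays lay below 3 of the control arrays, but control sample 1 fell among them. The difference was −0.22 ± 0.0996 (SE), or 0.857 of control, with a limma adjusted p of 0.707; without control sample 1 it was −0.31, with an adjusted p of 0.398, within a range of 0.236 to 0.996 over its alternatives.

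Ndufaf1, a core member of the membrane-arm assembly complex with Ecsit and Acad9, had 9.27, 9.27, 9.34 and 9.17 in ursolic acid muscle, against 9.10, 9.25, 9.20 and 9.19 in control muscle, with 3 ursolic acid arrays above every control array and a difference of 0.078 ± 0.066. Ndufaf2 is a paralogue of Ndufa12 that holds its place late in assembly. It had 9.57, 9.53, 9.62 and 9.34 in ursolic acid muscle, against 9.56, 9.56, 9.55 and 9.58 in control muscle. The control arrays lay close together (SD 0.011), ursolic acid samples 2 and 4 were below them and sample 3 above them, and the difference was −0.047 ± 0.071. Ndufaf7, a mitochondrial methyltransferase, had 6.910, 6.809, 6.761 and 6.806 in ursolic acid muscle, against 6.603, 6.793, 6.867 and 6.908 in control muscle. Its groups were interleaved, with a difference of 0.029 ± 0.079. Assembly factors without an Nduf name, from a written list of which 11 had a row, were likewise mixed, with 7 higher and 4 lower and a median difference of 0.050. The flavoprotein Foxred1 was alone among them at an unadjusted p under 0.05, where 7.07% of all rows were. Its difference was 0.24 ± 0.10, with a limma adjusted p of 0.679. Aifm1, a flavoprotein of the intermembrane space, and Nubpl, which supplies iron-sulfur clusters, came next by p, at 0.11 ± 0.075 and −0.32 ± 0.23.

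The subunit values differed from array to array in both groups. For each array, the shift is the median over the 27 subunits of the array's value minus the gene's mean over all 8 arrays. Shifts were 0.045, −0.036, 0.083 and 0.0046 in ursolic acid samples 1 to 4, against −0.041, −0.011, −0.039 and −0.029 in control samples 1 to 4. Ursolic acid samples 1, 3 and 4 were above every control, and sample 2 was below control samples 2 and 4. Ursolic acid sample 3 was above the gene mean in 26 of 27 subunits, or 96.3%, where 54.1% of all rows were, and it held the highest value of 11 subunits. Control sample 1 held the lowest value of 11 subunits. Among all rows that array was often at an end, lowest in 19.9% and highest in 21.6%.

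The 2 kinds of label divide the shifts further. Among samples described as untreated, the subunit shifts were 0.045 and 0.083 in ursolic acid muscle, against −0.041 and −0.039 in control muscle, and the median difference was 0.11, with 25 of 27 subunits higher. In the other class, those described as treated, they were −0.036 and 0.0046 in ursolic acid muscle, against −0.011 and −0.029 in control muscle, with a median difference of −0.0015 and 13 of 27 higher. The difference between the classes was not tested. In the 4 samples whose labels concur, the median difference was 0.021 with 19 of 27 higher.

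**Figure D3:**
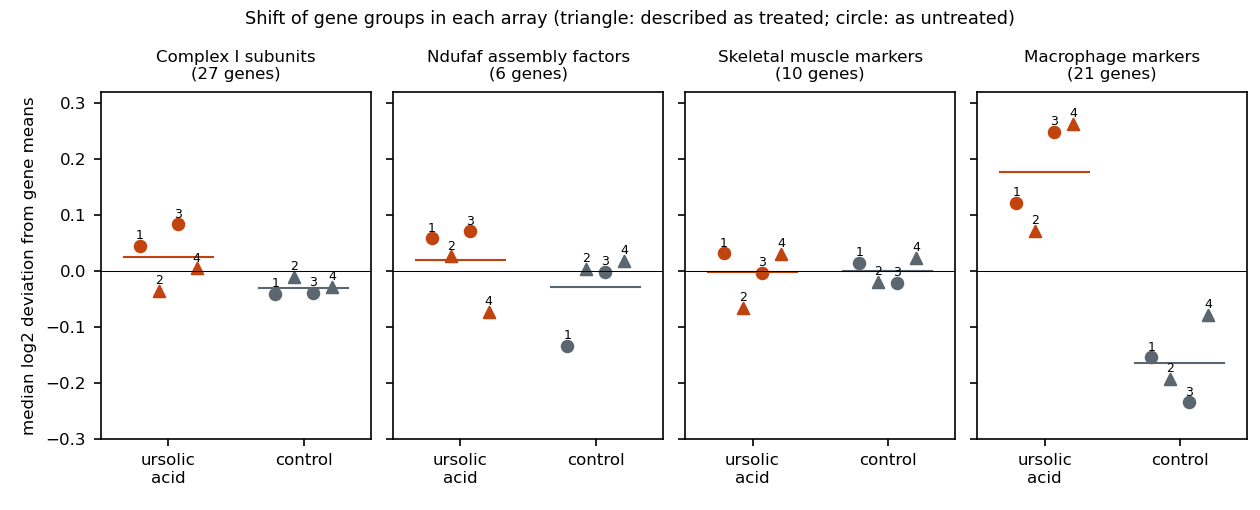
Median log2 deviation from each gene's mean over the 8 arrays, for complex I subunits, Ndufaf assembly factors, skeletal muscle markers and macrophage markers, with ursolic acid left of control; numbers are sample numbers, lines group means, triangles samples described as treated and circles those described as untreated. Subunit shifts span −0.041 to 0.083, while macrophage markers reach 0.26 in ursolic acid muscle, against −0.24 in control muscle.

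No marker of another cell type passed correction in the limma fit, and the lists were not tested against complex I. Of 21 macrophage and leukocyte markers 20 had higher means, 15 of them at an unadjusted p under 0.05 where 7.07% of all rows were, with a median difference of 0.34 and a smallest adjusted p of 0.0845. Their shift ran from 0.072 to 0.26 in ursolic acid arrays, against −0.24 to −0.079 in control arrays, with no overlap. All 10 fibroblast markers had higher means, 3 of them at an unadjusted p under 0.05, with a median of 0.19. Their shifts overlapped, at 0.154, −0.144, 0.078 and 0.237 in ursolic acid samples 1 to 4, against −0.054, −0.188, −0.115 and −0.028 in control samples 1 to 4. Endothelial markers had 3 of 8 higher and a median of −0.053, and adipocyte markers 3 of 6 and 0.023, with none at an unadjusted p under 0.05. Muscle markers had 6 of 10 higher, a median of 0.0031 and shifts from −0.066 to 0.031 in ursolic acid muscle, against −0.021 to 0.023 in control muscle. Slow oxidative fibre markers, whose fibres are rich in mitochondria, had 1 of 7 higher and a median of −0.14. The higher gene was Mb, at 0.022, which is also among the muscle markers. Their shifts spread widely in both groups, from −0.27 to 0.24 in ursolic acid muscle, against −0.36 to 0.23 in control muscle. The part of these cells or fibres in the complex I values was not tested.

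Among all rows, the difference correlated with the mean level at a Spearman rho of 0.192 over 16755 rows, which share the same 8 arrays. The subunits sat toward the bright end, with a median mean level of 10.04 against 5.58 for all rows. The median SD of the subunits, 0.072 among ursolic acid arrays and 0.069 among control arrays, lay below that of all rows, 0.115 and 0.120. Against bright rows the order depended on the cut. The 1396 rows with a mean of at least 8 had larger median SDs, 0.079 among ursolic acid arrays and 0.077 among control arrays. The 198 rows with a mean of at least 10 had smaller ones, 0.062 among ursolic acid arrays and 0.051 among control arrays. With cyclic loess, which evens out such trends between arrays, the median difference of the subunits was 0.043 with 20 of 27 higher, beside −0.0030 for all rows. No value for rows of like brightness is given for that setting, and the part of brightness in the subunit differences was not tested.

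**Figure D4:**
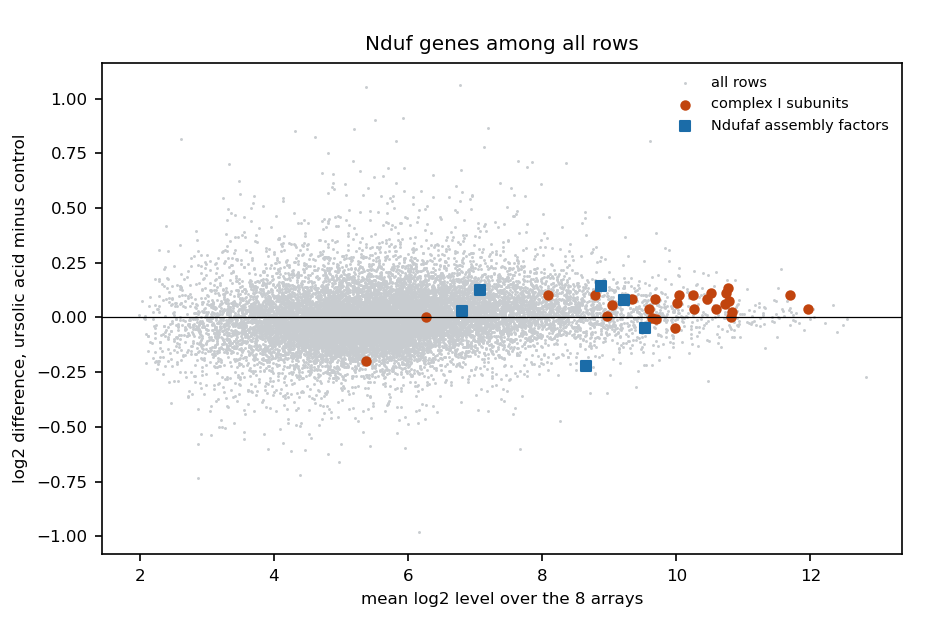
Log2 difference, ursolic acid minus control, against the mean log2 level over the 8 arrays for all 16755 rows (grey), complex I subunits (orange circles) and Ndufaf assembly factors (blue squares). The subunits lie in a narrow band just above 0 at levels mostly over 8, with Ndufa7 (5.38) and Ndufb11 (6.27) as the dim exceptions.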

How the data were processed

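The table holds log2 expression values that the authors deposited, with RMA and mm9 named as tool and build, per the submitters' processing notes. Base 2 was inferred from the range of the values. The sources used here give no detail of the probe summary beyond the name RMA. Of 16755 rows, 14996 carry 1 symbol. The 2 rows that carry an Nduf symbol beside others were left out.

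All rows entered 1 limma model (version 3.58.1, R 4.3.3; lmFit, eBayes without trend; 4 arrays against 4, two-sided, Benjamini-Hochberg over all rows), which was tested on simulated data. Intervals are at 95%. Arrays have no depth, and their number limits precision; no arrays were identical. Members, gene lists and motifs were chosen with earlier results of these data known. No list was tested as a set. By rule, every Nduf gene could be named. Every array's value is given for members at an unadjusted p under 0.05, the 3 highest and 3 lowest subunits, core subunits and Ndufaf genes, and was added for Ndufb8 and Ndufa12 after their values were seen. From lists of other genes, up to 3 of smallest p were named. Alternatives were other normalizations, filters, variance models, weights, labels, a replicate block, and each sample left out.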

Additional observations from a re-analysis of the deposited data

Results flagged for a closer look

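In 70 sets of 4 arrays (a gene or a median shift within a group), 7 had 1 outlying array; about 1 in 20 sets is flagged by chance. The value given is the gap to the nearest array divided by the group's range. Control sample 1 stood apart in 5 of them. It was high among controls for Ndufa2 (0.956; 10.81 beside 10.73) and Ndufv1 (0.919; 9.74 beside 9.60). It was low for Ndufaf5 (0.857; 8.51 beside 8.83), Ndufb2 (0.849; 9.54 beside 9.65) and the median shift of the assembly factors (0.867; −0.13 beside −0.0020). Ursolic acid sample 2 was low for Ndufa7 (0.956; 4.69 beside 5.46). Control sample 3 was low for Ndufs4 (0.845; 10.62 beside 10.72), and without it the Ndufs4 difference was 0.11 in place of 0.14.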

How the results depend on the processing

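The count of 0 Nduf genes at an adjusted p under 0.05 held in all 21 alternatives run for it. The count at an unadjusted limma p under 0.05 was 3 genes, where 7.07% of all rows passed. It was 1 with the replicate block, 1 with cyclic loess and 6 with robust moderation on a variance trend. The shares of all rows there were 8.82%, 7.31% and 7.51%. The count was 0 with concordant labels only, 1 when grouped by the description and 0 among samples described as untreated. The shares of all rows there were 10.7%, 12.5% and 4.82%. Leaving out single arrays gave 0 to 2 genes, where 5.52% to 8.59% of all rows passed. The count was 0 without ursolic acid sample 1, 2 or 4 or control sample 2 or 3. It was 1 without ursolic acid sample 3 or control sample 4. Genes whose groups do not overlap numbered 5 in place of 3 after centring on the median, with no share of all rows given here for that setting. The subunit median of 0.060 was 0.021 with concordant labels only, 0.0028 when grouped by the description (14 of 27 higher), −0.0015 among samples described as treated (13 of 27 higher) and 0.11 among those described as untreated, and 0.030 to 0.077 without single arrays. The Ndufaf median of 0.054 was −0.020 among samples described as treated and 0.0076 to 0.073 without single arrays. Ndufaf5 turned to 0.036 when grouped by the description. The fits within a description class were chosen after seeing the data. Over all rows, where 0 passed an adjusted p of 0.05, 27 did with dim rows (below the median level) left out, 13 of 1396 with rows below 8 left out, 12 with the variance trend and 23 with array weights, none of them an Nduf gene. The cause of these changes was not tested. Fits of 4 or 7 arrays also hold fewer samples than the main fit. Replicate numbers paired samples weakly, with correlations of deviations of 0.133, 0.083, 0.018 and 0.186 for numbers 1 to 4, and only numbers 1 and 4 correlated best with their own number; the block changed no adjusted call. Averaging rows, updating symbols and counting Ndufa4 and Ndufa4l2 could not change the members, since no Nduf gene had more than 1 row, updating added none and those 2 genes have no row used here, so these alternatives say nothing about stability. No background measurement was used here, so how far dim rows such as Ndufa7 stand above background is unknown.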

Other observations

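The other respiratory complexes, from written lists, also had 0 genes past correction. Of 6 measured genes of complex II and its assembly, which passes electrons from succinate, 4 had higher means, with a median difference of 0.085. The enzyme subunits Sdha, Sdhb, Sdhc and Sdhd had differences of 0.027, −0.010, −0.085 and 0.17. The rest, Sdhaf2 and Sdhaf4, are assembly factors, so the median is unlike that of the complex I subunits alone. Sdhaf4, Sdhd and Sdhaf2 led by p, with differences of 0.14, 0.17 and 0.14. Of 6 genes of complex III, which oxidises ubiquinol, 5 were higher, with a median of 0.046. Uqcrq, Cyc1 and Uqcr10 had differences of 0.16, 0.10 and 0.048. Of 8 genes of complex IV, which reduces oxygen, 7 were higher, with a median of 0.042. Cox7b and Cox7a2 were at an unadjusted p under 0.05, where 7.07% of all rows were. Their differences were 0.28 and 0.23, with limma adjusted p of 0.658 and 0.679. Both had their lowest value of all arrays in control sample 1, at 6.99 and 8.04. Cox6a1 had a difference of 0.069. Of 9 measured genes listed for ATP synthase 6 were higher, with a median of 0.026. That list also holds Atpif1 and Dmac2l, so it is not of enzyme subunits alone. Dmac2l, Atp5j2 and Atp5d had differences of −0.15, −0.19 and 0.089.

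Regulators of mitochondrial biogenesis gave 7 higher and 5 lower of 12 measured, with a median of 0.011 and none at an unadjusted p under 0.05. Tfam, which packages and transcribes mitochondrial DNA, had a difference of 0.11 ± 0.081, Tfb1m one of 0.11 ± 0.10 and Nrf1 one of −0.087 ± 0.074. No gene of these lists passed correction in the limma fit.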
